A study of Sus scrofa with 6 samples.

Results

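Genes counted mainly in 1 genotype were described in longissimus dorsi, a muscle of the back, from pigs with a UCP1 knock-in meant for adipocytes (UCP1 KI) and from wild-type (WT) pigs. They are 10 genes taken from a table of 30476 Ensembl pig genes by their symbols, namely *P4HTM*, *TGM5*, *OVGP1*, *PIWIL2*, *MAK*, *MROH7*, *SYNDIG1*, *PP2D1*, *AOC2* and *CENPU*, and they were chosen by these same counts, as genes with reads nearly absent in 1 genotype and present in every pig of the other. RNA-seq libraries were made from 3 UCP1 KI pigs and 3 WT pigs, all 6 months old, with each library taken as 1 pig and between 30220951 and 35066624 counted reads per library. The UCP1 KI pigs were generated with CRISPR/Cas9 and carry UCP1, the uncoupling protein of thermogenic fat, for expression in adipocytes. The labels and methods give no other allele or treatment for either genotype. Captions in the paper mention cold exposure, which the labels do not give for any of these samples. Sex, breed and litter are not given in the sources used here. The paper reports that its RNA-seq found no *UCP1* mRNA in the muscle of either genotype. No identifier here carries the symbol *UCP1*, and the genotype could not be checked on its own gene.

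These 10 genes have little in common in what they are known to do. Prolyl hydroxylases, transglutaminases and amine oxidases modify proteins or amines, PIWI proteins silence transposons in the germ line, and centromere proteins hold the kinetochore on the chromosome during division. Several of the genes are best known outside muscle, in the testis (*PIWIL2*, *MAK*), the oviduct (*OVGP1*), the epidermis (*TGM5*), the retina (*AOC2*) or the synapse (*SYNDIG1*). In whole muscle a lower count can come from fewer cells of a type or from less RNA per cell, and these cannot be told apart here.

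The choice of the 10 genes set no count limits. To put numbers on it, a count rule was used here. It asked for at most 3 counts in every pig of 1 genotype and at least 10 in every pig of the other. Of the 20062 genes with any count, 13 met it (0.0648%), 8 counted in UCP1 KI pigs (0.0399%) and 5 counted in WT pigs (0.0249%). Among the 10 genes, 7 met it, and *CENPU*, *PP2D1* and *AOC2* did not, since each had more than 3 counts in every pig of its lower genotype. The levels of these last genes were graded between genotypes rather than absent in 1 of them. The values of all 10 genes did not overlap between genotypes, 7 higher in UCP1 KI pigs and 3 higher in WT pigs. Of genes with any count, 5.71% did not overlap and were higher in UCP1 KI pigs, 6.67% in WT pigs and 12.4% in either direction. The 10 genes were chosen for this pattern, and nothing is read from it. For the same reason, no test was made of the 10 genes themselves.

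**Figure D1:**
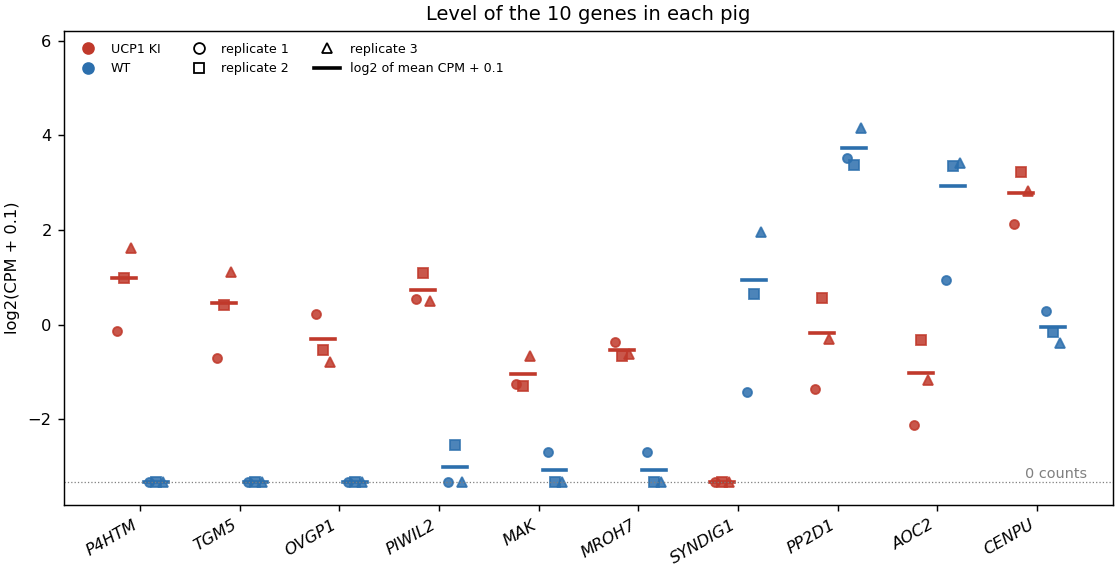
Level of each of the 10 genes in each pig, as log2 of CPM (counts scaled to a total of 1000000) plus 0.1, with UCP1 KI pigs in red, WT pigs in blue, a marker shape for each replicate number and a bar at the log2 of the group mean plus 0.1. The 4 genes *P4HTM*, *TGM5*, *OVGP1* and *SYNDIG1* lie on the line of 0 counts in all pigs of 1 genotype, whereas *PP2D1*, *AOC2* and *CENPU* lie above it in every pig.

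Levels are given below as raw counts and as CPM, the count scaled to a total of 1000000 with edgeR's TMM factors, which ranged from 0.781 to 1.18. The upper limit for a gene without reads, set at 3 counts, was 0.0795 to 0.11 CPM depending on the library. CPM are not corrected for gene length and are compared only within a gene. Among the low values of the table, even counts outnumbered odd ones, with 4323 values of 2 against 3166 values of 1, and 3088 values of 4 against 1557 values of 3. Counts were therefore not taken as all independent fragments, and limits and intervals, which cover counting error only, may be too narrow. Intervals pool the counts of a genotype and leave out the spread between its pigs. Each interval given below rests on 2 counts in the lower genotype. Choosing genes by these same counts favours high ratios, so the ratios and intervals of such genes are descriptions and not tests. The 20 most abundant genes took between 39.0% and 44.0% of the counts in UCP1 KI pigs and between 44.5% and 56.5% in WT pigs, the highest being WT replicate 2.

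*P4HTM* (ENSSSCG00000011368; Sscrofa11.1 chromosome 13, 31627230 to 31642251) encodes a prolyl 4-hydroxylase of the endoplasmic reticulum membrane that can act on the hypoxia-inducible factor alpha subunits. It was counted 25, 67 and 112 times in UCP1 KI replicates 1 to 3 and 0 times in each WT pig. The UCP1 KI pigs thus all had *P4HTM* reads and differed 3.67-fold in CPM among themselves. Its level was 1.88 ± 1.08 CPM (SD, n = 3) in UCP1 KI pigs, at least 19.3-fold higher than 3 counts per WT library.

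Of 11 tested genes for prolyl and asparaginyl hydroxylases and the hypoxia-inducible factors, 1 passed both limits of the test across all genes, which were p under 0.05 before adjustment (edgeR, quasi-likelihood) together with a log2 fold change beyond 0.5 in either direction. Over all 13402 genes tested, 1097 (8.19%) passed both limits, 3.84% (515 genes) higher and 4.34% (582 genes) lower in UCP1 KI pigs. With library size as the only scaling 929 were higher and 195 lower, and the median of all genes moved from -0.015 to 0.239. After Benjamini-Hochberg adjustment 0 genes had an adjusted p under 0.05 with edgeR (1100 had an unadjusted p under 0.05), and 127 did with DESeq2. The gene that passed was *P4HB*, the disulfide isomerase that serves as the beta subunit of collagen prolyl hydroxylase. It was at 60.4, 94.6 and 71.4 CPM in UCP1 KI pigs and 34.3, 42.9 and 59.9 CPM in the WT, and its log2 fold change was 0.72 (standard error, SE, 0.295, unadjusted p = 0.0406, adjusted p = 0.603 from edgeR). *P4HB* no longer passed when UCP1 KI replicate 2 or 3 or WT replicate 1 or 2 was left out, with log2 fold changes of 0.52, 0.76, 0.55 and 0.68. The oxygen sensor *EGLN1* had a log2 fold change of 0.09 and *HIF1AN*, the asparaginyl hydroxylase, one of -0.02, and the median of the list was 0.09, against -0.015 for all genes tested.

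Neighbours are given as the nearest genes that have an identifier in the table, and nearer annotated genes without one were passed over to reach *TGM7*, *CHIA*, *PAK1IP1*, *CST3*, *CST7* and *AARSD1*. On the chromosome, the annotated span of *P4HTM* overlaps that of *WDR6*, a WD repeat gene, by 45 bases. *WDR6* was at 5.11, 1.21 and 7.15 CPM in UCP1 KI pigs and 10.1, 10.6 and 8.78 CPM in WT pigs. Its groups did not overlap and its difference ran opposite to that of *P4HTM*, but its log2 fold change of -1.13 (SE 0.56, adjusted p = 0.635 from edgeR) did not pass the limits. Without UCP1 KI replicate 3 it passed them, at -1.63. On the other side, *ARIH2*, a ubiquitin ligase gene 3396 bases away, averaged 94.6 ± 55.9 CPM (SD, n = 3) with the knock-in and 102 ± 43.8 CPM (SD, n = 3) without it. Reads that fall where annotated genes overlap can be counted for either gene, and the part of this in the *P4HTM* counts was not tested.

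*TGM5* (ENSSSCG00000004713; chromosome 1, 128191647 to 128217249) encodes a transglutaminase that cross-links proteins of the outer epidermis. It was counted 16, 44 and 78 times in UCP1 KI replicates 1 to 3 and 0 times in each WT pig. Like *P4HTM* it was lowest in UCP1 KI replicate 1 and highest in replicate 3, and the ratio of *P4HTM* to *TGM5* CPM, not corrected for length, was 1.56, 1.52 and 1.44 in the 3 pigs, although the genes lie on different chromosomes. This ratio was noticed after the values were seen and rests on 3 pigs. The level of *TGM5* was 1.27 ± 0.775 CPM (SD, n = 3), at least 13.1-fold higher than 3 counts per WT library.

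Of the other transglutaminases, 5 were tested and 0 passed both limits (0 had an unadjusted p under 0.05). *TGM2*, the tissue transglutaminase, was at 1681, 1942 and 1387 counts in UCP1 KI pigs and 2932, 1898 and 1260 in the WT, for a log2 fold change of -0.40 (SE 0.31, adjusted p = 0.742 from edgeR). *TGM7*, the neighbour of *TGM5* at a distance of 6541 bases, and *TGM6* had 0 counts in all 6 pigs. *EPB42*, a transglutaminase-like protein of the red cell membrane and the neighbour on the other side, at 14613 bases, averaged 1.03 ± 0.306 CPM (SD, n = 3) with the knock-in and 0.782 ± 0.249 CPM (SD, n = 3) without it, which overlapped. Of 5 keratinocyte markers *KRT1*, *DSG1* and *DSG3* had 0 counts in every pig, while *KRT10*, at 4.08 to 10.9 CPM, and *TP63*, at 6.76 to 23.7 CPM, were counted in every pig.

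*AOC2* (ENSSSCG00000017384; chromosome 12, 20021987 to 20027967) encodes a copper amine oxidase described in the retina. It was counted 4, 25 and 13 times with the knock-in and 66, 277 and 318 times in WT pigs. WT replicate 1 was far below the other WT pigs, at 1.82 CPM against 10.1 and 10.6 CPM, and was 2.59-fold above the highest UCP1 KI pig. The group levels were 0.392 ± 0.289 CPM (SD, n = 3) and 7.52 ± 4.94 CPM (SD, n = 3), 19.2-fold higher in WT pigs (31.7-fold without UCP1 KI replicate 2). Among the 10 genes *AOC2* had the smallest gap between genotypes, the gap being the log2 ratio of the lowest CPM in the higher genotype to the highest CPM in the lower, each plus 0.1. It was 1.26 for *AOC2*, the 64th largest of all genes with any count. The choice of the 10 genes by these counts favours high ranks, which are descriptions only.

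Of 8 other amine oxidases tested, 1 (12.5%) passed both limits, against 8.19% of all genes tested. This was *LOXL4*, a lysyl oxidase-like enzyme of the extracellular matrix. It was at 13.2, 17.1 and 1.51 CPM in UCP1 KI pigs and 2.84, 1.83 and 1.77 CPM in WT pigs, so UCP1 KI replicate 3 lay below all WT pigs. It had a log2 fold change of 2.30 (SE 0.765, unadjusted p = 0.0178, adjusted p = 0.583 from edgeR). *LOXL4* fell short when UCP1 KI replicate 2 was left out, at 1.78, and when WT replicate 2 or 3 was, at 2.19 and 2.18. *MAOB*, a mitochondrial monoamine oxidase, had a log2 fold change of -0.21 and overlapping groups. The gene *PSME3*, a proteasome activator subunit that starts 144 bases from the end of *AOC2*, averaged 33.7 ± 13.9 CPM (SD, n = 3) with the knock-in and 20.9 ± 5.23 CPM (SD, n = 3) without it. Its log2 fold change of 0.69 (SE 0.38, adjusted p = 0.656 from edgeR) was opposite in sign to that of *AOC2* and did not pass the limits. With library size only, with the replicate number as a block or without UCP1 KI replicate 1 it passed, at 1.02, 0.62 and 1.0. *AARSD1*, the nearest identified gene on the other side, at 95158 bases, had a log2 fold change of -0.02.

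*MAK* (ENSSSCG00000001042; chromosome 7, 7482089 to 7538373) encodes a kinase of male germ cells and of photoreceptor cilia. It was counted 10, 11 and 20 times with the knock-in and 2, 0 and 0 times in WT pigs. Each UCP1 KI pig lay above each WT pig, but *MAK* stood at the edge of the rule, with a lowest UCP1 KI count of exactly 10. Over the 3 pigs of a genotype these counts gave a ratio of 18.4 (95% exact interval 4.78 to 157), for 0.387 ± 0.124 CPM (SD, n = 3) in UCP1 KI pigs. All WT reads were in WT replicate 1, and without it *MAK* was at least 3.69-fold above 3 counts per WT library. A protein-coding gene without an identifier in the table overlaps 48793 bases of the annotated *MAK* span and was not analysed here.

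Among *MAK*-related kinases and ciliary genes, 6 were tested and 0 passed both limits (0 had an unadjusted p under 0.05). *CILK1*, the closest kinase relative measured, had a log2 fold change of 0.00 (SE 0.29), with 305, 423 and 564 counts with the knock-in and 572, 266 and 335 without it. *IFT88* and *KIF3A*, of ciliary transport, had log2 fold changes of -0.47 and -0.51. The neighbour *PAK1IP1* had a log2 fold change of -0.32 and overlapping groups, and *GCM2* on the other side was counted 3 times in a single pig.

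*PP2D1* (ENSSSCG00000027327; chromosome 13, 6939990 to 6958513) encodes a protein with a phosphatase 2C-like domain. It had 413, 281 and 534 counts in WT pigs and 9, 49 and 27 in UCP1 KI pigs. WT levels stayed within 1.74-fold of each other, whereas the UCP1 KI pigs ranged from 0.291 to 1.37 CPM. The lowest WT pig was 7.47-fold above the highest UCP1 KI pig. The means were 13.2 ± 4.08 CPM (SD, n = 3) and 0.794 ± 0.546 CPM (SD, n = 3), 16.6-fold higher in WT pigs (26.1-fold without UCP1 KI replicate 2), and its gap of 2.81 was the 5th largest of the 20062 genes.

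The 19 other phosphatases of the PPM family were all tested and 0 passed both limits (0 had an unadjusted p under 0.05), with a median log2 fold change of 0.06. *PPM1A*, a phosphatase that acts on SMAD and kinase substrates, was counted 2271, 2772 and 3078 times with the knock-in and 2219, 1768 and 2500 times in the WT, for a log2 fold change of 0.15 (SE 0.22). *PP2D1* overlaps *RAB5A*, the small GTPase of early endosomes, by 176 bases. *RAB5A* averaged 39.8 ± 2.59 CPM (SD, n = 3) with the knock-in and 36.3 ± 3.31 CPM (SD, n = 3) without it, a log2 fold change of 0.13 (SE 0.205, adjusted p = 0.879 from edgeR). The acetyltransferase gene *KAT2B*, 26637 bases from *PP2D1*, had a log2 fold change of 0.57 that did not pass (adjusted p = 0.679 from edgeR).

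*PIWIL2* (ENSSSCG00000030228; chromosome 14, 6560402 to 6632524) encodes a PIWI protein that binds piRNAs in the germ line. It was counted 42, 72 and 50 times with the knock-in and 0, 2 and 0 times in WT pigs. The UCP1 KI pigs were close to each other, within 1.52-fold in CPM, and the only WT reads were in WT replicate 2. Their mean was 1.57 ± 0.392 CPM (SD, n = 3), and the group counts gave a ratio of 73.6 (95% exact interval 20 to 613). The ratio was 45.1 without WT replicate 1, and without WT replicate 2 it became a bound of at least 17.1-fold against 3 counts per WT library.

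Of 18 Argonaute and piRNA pathway genes with an identifier, 4 had 0 counts in every pig, among them *PIWIL3*, *TDRD1* and *MAEL*, and *DDX4*, the germ cell helicase, had at most 2 counts in a pig. Of the 5 that were tested, 0 passed both limits (0 had an unadjusted p under 0.05). *PIWIL4* was counted 5, 0 and 11 times with the knock-in and 0, 3 and 0 times in WT pigs, which overlapped. The ubiquitous *AGO2*, of the microRNA pathway, had a log2 fold change of 0.27 (SE 0.35). Neighbours of *PIWIL2* did not pass either, with 0.56 for *POLR3D*, a subunit of RNA polymerase III (adjusted p = 0.680 from edgeR), and 0.01 for *SLC39A14*, a metal transporter. *POLR3D* passed with library size only, at 0.85, and without WT replicate 3, at 0.96.

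*OVGP1* (ENSSSCG00000006791; chromosome 4, 108929034 to 108941040) encodes a secreted glycoprotein of the oviduct that belongs to the chitinase-like glycoside hydrolase 18 family. It was counted 33, 21 and 18 times with the knock-in and 0 times in each WT pig. UCP1 KI replicate 1 was the highest here, unlike for *P4HTM* and *TGM5*. The level of 0.711 ± 0.314 CPM (SD, n = 3) was at least 7.30-fold higher than 3 counts per WT library.

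Its family included another gene with reads in UCP1 KI pigs alone. *CHI3L2*, a chitinase-like gene 140502 bases from *OVGP1*, was counted 10, 26 and 6 times with the knock-in and 0 times in each WT pig, at least 4.14-fold higher than 3 counts per WT library, and at least 2.47-fold without UCP1 KI replicate 2. It missed the rule through its lowest count of 6, was left out of the test by the filter on low counts, and was singled out after its values were seen. *CHI3L1*, another relative, was counted 18, 33 and 50 times with the knock-in and 25, 0 and 2 times in WT pigs, so WT replicate 1 overlapped with the UCP1 KI pigs, and its log2 fold change of 1.84 (SE 1.115, adjusted p = 0.683 from edgeR) did not pass. *CHID1*, a widely used family member, had a log2 fold change of -0.07. Of 6 genes of the family, *CHIT1* had 0 counts in every pig, and *CHIA*, the nearest identified neighbour on that side, was counted 2 times in a single pig. On the other side, *WDR77* had a log2 fold change of 0.33 (adjusted p = 0.758 from edgeR).

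*SYNDIG1* (ENSSSCG00000007130; chromosome 17, 30621622 to 30709387) encodes a membrane protein of excitatory synapses that associates with AMPA glutamate receptors. It was counted 0 times in each UCP1 KI pig and 10, 40 and 113 times in WT pigs. It was the least even of the 10 genes within a genotype, with a 13.7-fold range of CPM from WT replicate 1 to WT replicate 3. The level of 1.84 ± 1.78 CPM (SD, n = 3) in WT pigs was at least 21.1-fold higher than 3 counts per UCP1 KI library, and at least 9.99-fold without WT replicate 3. *SYNDIG1* was also the only one of the 10 genes that the filter on low counts left out of the fit. An unnamed long non-coding RNA gene without an identifier overlaps 7868 bases of its span.

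The AMPA receptor subunit *GRIA2* was counted in the same genotype as *SYNDIG1*, with 0 counts in each UCP1 KI pig and 13, 6 and 4 in WT pigs, at least 2.73-fold higher than 3 counts per UCP1 KI library. It too was left out of the test and was singled out after its values were seen. The other subunits differed from it, since *GRIA1* was counted in WT replicate 1 alone (10 counts), *GRIA3* at 4, 6 and 8 against 8, 4 and 0, and *GRIA4* at 34, 15 and 43 against 63, 15 and 27. *CNIH3*, another gene of this list, was counted 18, 3 and 5 times with the knock-in and 3, 0 and 2 times in WT pigs. Its CPM did not overlap and ran opposite to *GRIA2*, with a lowest UCP1 KI value of 0.0841 and a highest WT value of 0.0827. *CNIH3* was not tested either. Of 5 tested genes of this list 0 passed both limits (0 had an unadjusted p under 0.05). The lowest p was that of *TRARG1*, a regulator of glucose transporter trafficking related to *SYNDIG1*. Its log2 fold change was -1.87 (SE 0.89, unadjusted p = 0.0708, adjusted p = 0.630 from edgeR). *TRARG1* was counted 32, 30 and 119 times with the knock-in and 38, 355 and 133 times in WT pigs, which overlapped.

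Of the neighbours of *SYNDIG1*, *CST7*, which encodes a cystatin of leukocytes and lies 48612 bases away, passed both limits in the opposite direction. It was counted 35, 94 and 11 times with the knock-in and 8, 5 and 6 times in WT pigs, and the groups did not overlap. Its log2 fold change of 2.72 (SE 0.82, unadjusted p = 0.0111, adjusted p = 0.583 from edgeR) became 1.80 without UCP1 KI replicate 2 and then did not pass. Of 8 leukocyte markers 6 were highest in that same pig, among them *CD3E* of T cells at 7.04 CPM, whereas *CD8A* was highest in UCP1 KI replicate 1 and *CD4* in WT replicate 2. The list summed to 24.5 to 67.8 CPM with the knock-in and 22.7 to 44.5 CPM without it, and the part of leukocytes in the *CST7* difference was not tested. *CST3*, the cystatin gene on the other side, was at 4086, 6123 and 3582 counts against 5580, 4598 and 2993, a log2 fold change of -0.08.

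*CENPU* (ENSSSCG00000015785; chromosome 15, 45818562 to 45851461) encodes a subunit of the constitutive centromere-associated network, where it binds CENPO, CENPP, CENPQ and CENPR. It was counted 132, 331 and 262 times with the knock-in and 41, 22 and 20 times in WT pigs. The lowest UCP1 KI pig was 3.78-fold above the highest WT pig. *CENPU* averaged 6.83 ± 2.51 CPM (SD, n = 3) with the knock-in and 0.867 ± 0.238 CPM (SD, n = 3) without it, 7.88-fold higher in UCP1 KI pigs.

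Of 15 tested genes of the network and of CENPA loading, 1 (6.67%) passed both limits, against 8.19% of all genes tested. This was *CENPT*, a kinetochore-linking subunit, which was lower in UCP1 KI pigs. *CENPT* was counted 3, 7 and 9 times with the knock-in and 14, 17 and 15 times in the WT, for a log2 fold change of -1.47 (SE 0.62, unadjusted p = 0.0471, adjusted p = 0.605 from edgeR). It did not pass in any of the 6 fits with a pig left out, where it lay between -1.74 and -1.19, nor with library size only, with all genes with any count, with DESeq2 or with the replicate number as a block. *CENPQ*, of the same subcomplex as *CENPU*, was at 3.75, 5.30 and 5.06 CPM in UCP1 KI pigs and 2.32, 3.29 and 3.64 CPM in WT pigs. The *CENPQ* groups did not overlap, but its log2 fold change of 0.61 (SE 0.31, adjusted p = 0.642 from edgeR) did not pass the limits. *CENPP* had a log2 fold change of -0.47, and the median of the list was -0.35. Of 6 markers of dividing cells 0 passed (0 had an unadjusted p under 0.05). The groups of *TOP2A*, *CCNB1*, *CDK1*, *BUB1* and *TYMS* overlapped, with log2 fold changes from -0.52 to 0.59, and *AURKB*, a mitotic kinase, was at 1.0, 1.80 and 1.72 CPM against 7.94, 2.05 and 1.94 CPM, which did not overlap (log2 fold change -1.40).

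The annotated span of *CENPU* lies almost wholly within that of *PRIMPOL*, a primase-polymerase gene, with an overlap of 32491 of its 32900 bases. *PRIMPOL* was counted 57, 35 and 37 times with the knock-in and 26, 24 and 41 times in WT pigs, which overlapped, and its log2 fold change was 0.36 (SE 0.48, adjusted p = 0.857 from edgeR). *ACSL1*, a fatty acid activating enzyme 15396 bases away, had a log2 fold change of -0.02. How reads in the shared span were divided between *CENPU* and *PRIMPOL* was not tested.

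*MROH7* (ENSSSCG00000003845; chromosome 6, 157657492 to 157734306) encodes a protein of HEAT-like repeats. It was counted 21, 19 and 21 times with the knock-in and 2, 0 and 0 times in WT pigs. Its UCP1 KI levels were the most even of the 10 genes, within 1.27-fold, at 0.589 ± 0.0786 CPM (SD, n = 3). The group counts gave a ratio of 27.4 (95% exact interval 7.26 to 231). Without WT replicate 1, which held all its WT reads, *MROH7* was at least 5.62-fold above 3 counts per WT library.

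Of its family, *MROH1* was the only other member with enough counts to be tested, at a log2 fold change of -0.35 (SE 0.28). *MROH2A* and *MROH9* had 0 counts in every pig. The neighbour *TTC4*, a co-chaperone gene 5815 bases from *MROH7*, passed both limits in the same direction. *TTC4* was at 5.95, 10 and 12.4 CPM in UCP1 KI pigs and 3.97, 2.70 and 6.01 CPM in WT pigs, so UCP1 KI replicate 1 and WT replicate 3 overlapped. Its log2 fold change was 1.16 (SE 0.40, unadjusted p = 0.0206, adjusted p = 0.583 from edgeR). It fell short when UCP1 KI replicate 3 was left out, at 0.92, and when WT replicate 1 or 2 was, at 1.11 and 0.92. *FAM151A*, on the other side, was counted 2 times in 2 of the pigs and 0 times in the rest.

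**Figure D2:**
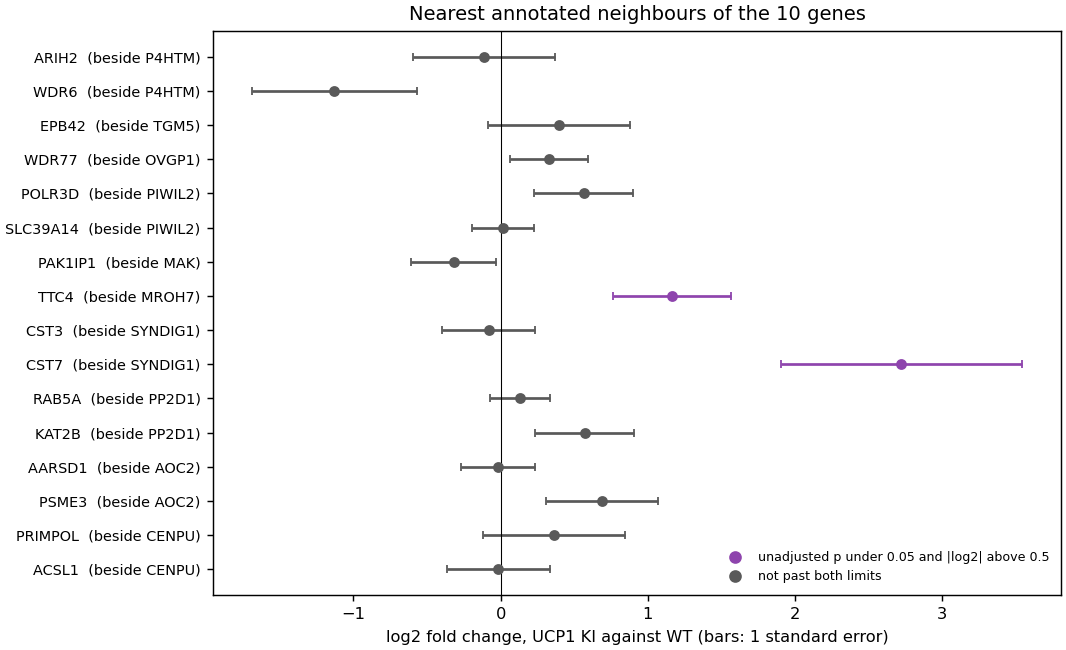
Log2 fold change of UCP1 KI against WT pigs, with bars of 1 standard error from edgeR (3 pigs per genotype), for the 16 neighbours of the 10 genes that could be tested, each the nearest gene with an identifier on its side. *TTC4* and *CST7*, in purple, passed both limits, at 1.16 and 2.72, and *WDR6* was the lowest, at -1.13.

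Over the nearest gene with an identifier on each side of all 10 genes, 16 of 20 could be tested and 2 passed both limits, *TTC4* and *CST7*, both higher in UCP1 KI pigs. This is 12.5%, against 8.19% of all genes tested, and the median log2 fold change of the neighbours was 0.23. *TTC4* stood beside a gene counted in UCP1 KI pigs and *CST7* beside a gene counted in WT pigs. With the 3 nearest genes on each side, 3 of 42 (7.14%) passed. The 10 genes lie on 9 chromosomes, and the pair on chromosome 13, *PP2D1* and *P4HTM*, were higher in opposite genotypes.

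**Figure D3:**
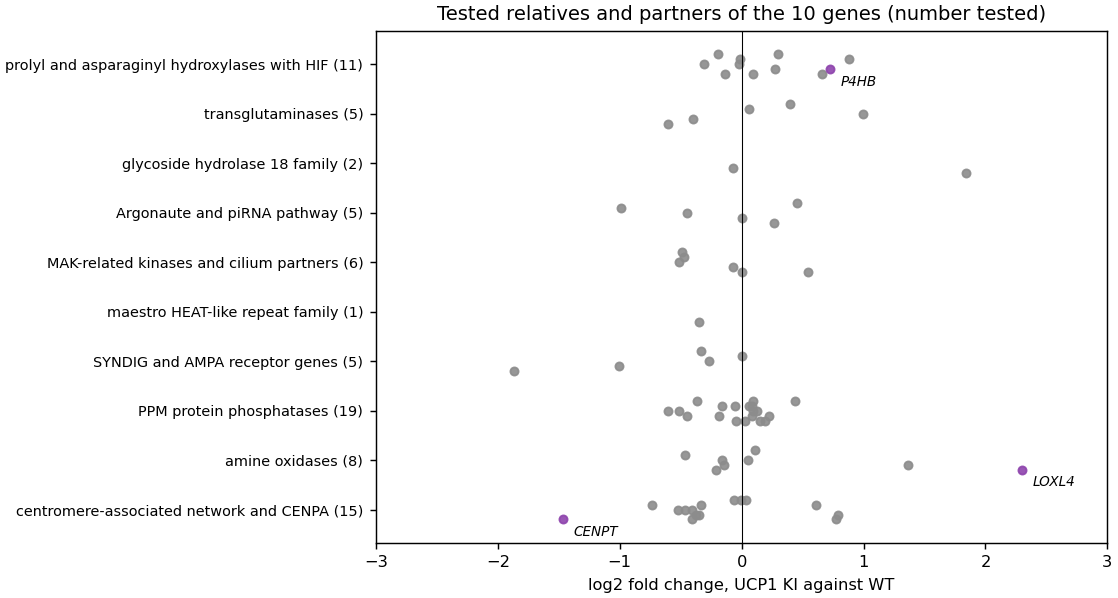
Log2 fold change of UCP1 KI against WT pigs for each tested relative or partner of the 10 genes, in 10 lists with the number tested in parentheses, where a point is a gene. *P4HB*, *LOXL4* and *CENPT*, in purple, are the 3 genes past both limits, and most of the others lie within 1 of 0.

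Over all relatives and partners, 114 of 135 listed genes had an identifier, 77 could be tested, and 3 passed both limits, 2 higher and 1 lower. This is 3.90%, below the 8.19% of all genes tested, with a median log2 fold change of -0.045. Another 12 had 0 counts in every pig.

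**Figure D4:**
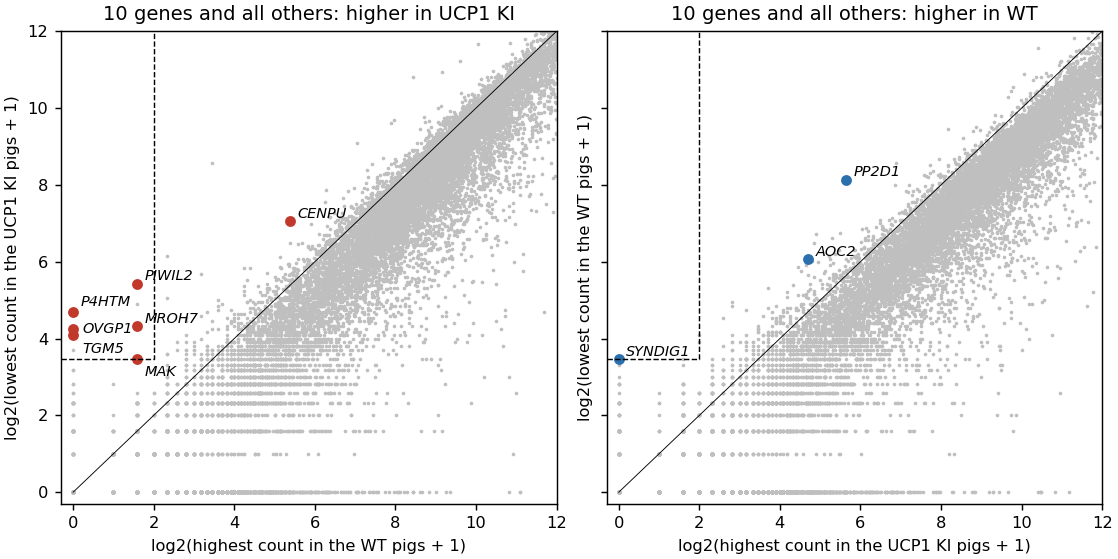
Lowest count in the pigs of 1 genotype against the highest count in the other, both as log2 of the count plus 1, for all genes with any count (grey), with axes that end at 12; UCP1 KI is the higher genotype on the left and WT on the right, and the dashed corner holds counts of at most 3 and at least 10. Of the 10 genes, 7 lie in the corner or on its edge, and *CENPU*, *PP2D1* and *AOC2* lie to its right, above the line of equal counts.

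Among all genes with any count ranked by their gap between genotypes, 5 of the 10 genes were among the 10 largest gaps and 7 among the 20 largest. The 10 genes were chosen by these same counts, so high ranks were built in and nothing is read from them. *P4HTM* and *PIWIL2* were 3rd and 4th, with gaps of 3.18 and 3.04, and *MAK* was 49th with 1.40. The 1st and 2nd places were held by genes without a symbol, ENSSSCG00000049503 with 880, 449 and 380 counts with the knock-in and 10, 6 and 2 in WT pigs, and ENSSSCG00000050978 with 171, 629 and 70 against 4, 0 and 0. Genes without a symbol also made up 5 of the 13 genes that met the rule. Of these, ENSSSCG00000043215 had 0 counts in each UCP1 KI pig and 81, 22 and 10 in WT pigs. The only other gene with a symbol was *PTPRZ1*, a receptor phosphatase of glia, at 2, 0 and 0 counts with the knock-in and 12, 10 and 20 in WT pigs, a ratio of 23.4 (95% exact interval 6.09 to 200). Without UCP1 KI replicate 1, which held all its UCP1 KI reads, *PTPRZ1* was at least 5.56-fold above 3 counts per UCP1 KI library, and without UCP1 KI replicate 2 or 3 the ratio was 15.4 or 14.9. Just outside the rule, 10 genes had a lowest count of 8 or 9 or a highest count of 4, among them *NAT8L*, which makes N-acetylaspartate, with 82, 32 and 75 counts against 2, 0 and 4.

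Markers of the tissues in which some of the 10 genes are best known were checked in both genotypes. Of 8 germ cell markers, 4 (*SYCP1*, *MAEL*, *TEX101* and *PRM1*) had 0 counts in every pig, *SYCP3* and *BOLL* were counted in every pig with overlapping groups, and the summed level of the list ran from 0.982 to 1.54 CPM in UCP1 KI pigs and from 1.02 to 4.04 CPM in WT pigs. For ciliated and oviduct epithelium, *RSPH1*, *DNAH5* and *EPCAM* were at 0 and the sums were 1.23 to 2.65 and 2.47 to 4.69 CPM. Of that list *FOXJ1* was counted in every pig, with overlapping groups, and *ESR1*, the oestrogen receptor, was at 1.58, 0.449 and 1.88 CPM against 2.84, 2.67 and 2.17 CPM, which did not overlap but did not pass (log2 fold change -0.97). For photoreceptors, *PDE6B* and *CRX* were at 0, *RCVRN* was counted in every pig and the sums were 0.477 to 1.03 and 0.438 to 0.662 CPM. The keratinocyte sums of 12.5 to 31.0 and 11.8 to 27.6 CPM came from *KRT10* and *TP63*. Neuron markers summed to 47.5 to 76.2 and 46.3 to 52.2 CPM, with *SNAP25* at 0 and *SYN1* and *GAP43* counted in every pig. In each of these 5 lists 0 tested genes passed both limits (0 had an unadjusted p under 0.05), and the summed levels overlapped between genotypes in each.

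Muscle itself was plainly present, with fibre markers summing to between 69040 and 121800 CPM in every pig and 0 of 9 past the limits (0 had an unadjusted p under 0.05). Among stromal and blood lists, 4 of 7 fibroblast markers (*COL1A1*, *COL1A2*, *COL3A1* and *LUM*) passed as lower in UCP1 KI pigs, against 4.34% of all genes tested, and the list summed to 251 to 444 CPM in UCP1 KI pigs and 749 to 1201 CPM in WT pigs. Red blood cell markers summed to 11.4 to 76.0 CPM in UCP1 KI pigs and 104.6 to 180.2 CPM in WT pigs, though 0 of 3 passed (0 had an unadjusted p under 0.05). Neither sum overlapped between genotypes. The fibroblast sum came mostly from the 3 collagens, and the other 4 genes of that list summed to 132.6 to 152.5 CPM with the knock-in and 150.0 to 208.2 CPM without it, which overlapped. *PDGFRA*, *DCN* and *DPT* did not pass, with log2 fold changes of -0.08, -0.39 and 0.17 and overlapping groups. The red blood cell sum was nearly all *HBB*, a haemoglobin chain, and the list without *HBB* summed to 0.140 to 1.20 CPM with the knock-in and 1.24 to 2.67 CPM without it, which did not overlap either. In that list *AHSP*, the haemoglobin-stabilising protein, was at 8, 0 and 4 counts against 16, 16 and 19, *ALAS2* overlapped between genotypes and *SLC4A1* was counted 3 times in a single pig. *LUM* fell short in 8 of 12 alternatives, with a log2 fold change of -0.57 that was -0.31 with library size only, and *COL3A1* fell short with WT replicate 2 left out, at -1.31. Of the endothelial markers 1 of 6 passed, *TEK*, and of the leukocyte markers 1 of 8, *CD3E*. Both were higher in UCP1 KI pigs, as were 3.84% of all genes tested. Over all marker lists 6 of 61 tested genes (9.84%) passed, against 8.19% of all genes tested. The log2 fold change of *CD3E*, 1.84, fell short at 0.95 with UCP1 KI replicate 2 left out, at 2.03, 1.58 and 1.94 with WT replicate 1, 2 or 3 left out, and at 1.47 with the replicate number as a block. The adipocyte and Schwann cell lists overlapped between genotypes, with 0 genes past the limits (0 had an unadjusted p under 0.05). The part of these cell types in the levels of the 10 genes was not tested.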

How the data were processed

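The authors trimmed paired-end mRNA reads with Trimmomatic 0.36, mapped them with HISAT2 2.0 and deposited raw counts per Ensembl gene, without normalization, in 1 column per pig; labels name the build Sscrofa11.1, StringTie 1.3.3b and DESeq2 1.12.4. The counting program and annotation release are not given in the sources used here. Counts were fitted in R 4.3.3 with edgeR 4.0.16 (filterByExpr, TMM factors, quasi-likelihood F test, two-sided, genotype as the only term), with genes called where raw p was under 0.05 and the log2 fold change beyond 0.5 in either direction; adjusted p values are Benjamini-Hochberg over 13402 genes. The fit was tested on simulated data. The labels number the libraries as replicates and say nothing of animals or litters, so p values measure the spread between these samples, which may be technical.

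The 10 genes and all lists were chosen with earlier results of these data known, and the 10 genes were not tested. Named genes are the 10, their nearest neighbours, list genes past both limits and other genes with a symbol that met the on-off rule; others were chosen after their values were seen, as examples. Symbols came from an Ensembl table, and positions and neighbours from the RefSeq annotation of Sscrofa11.1 by symbol. Exact intervals are Clopper-Pearson at 95% on counts summed over the pigs of each genotype, without the spread between pigs. Alternatives were DESeq2 1.42.0, median-of-ratios factors, library size only, 2 other filters, the replicate number as a block, other count limits, a pseudocount of 0.5 CPM, each pig left out and, added after seeing the data, the 3 nearest neighbours. No sequences were used here.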

Additional observations from a re-analysis of the deposited data

How the results depend on the processing

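Leaving out each pig gave 678 to 1541 genes past both limits, falling to 678 without UCP1 KI replicate 2 and to 718 without WT replicate 2. The 13 on-off genes became 23 at a limit of 5 counts, 6 at a limit of 1, 3 when at least 20 counts were asked for, and 19 to 35 with each pig left out, which loosens the rule by construction. All 10 genes differed by more than 1 on the log2 scale in every setting but the pseudocount of 0.5 CPM. That setting reduced the difference most in 7 of them. *P4HTM* went from 4.31 to 2.25, *TGM5* from 3.78 to 1.83, *PIWIL2* from 3.75 to 1.98 and *OVGP1* from 3.02 to 1.28. *MROH7* went from 2.54 to 1.07, *SYNDIG1* from -4.27 to -2.22 and *MAK* from 2.04 to 0.78. Relatives past both limits numbered 0 to 6 with each pig left out (0 without UCP1 KI replicate 2) and 6 with all genes with any count. Neighbours numbered 1 to 3 with each pig left out, 4 with library size only and 1 with at least 10 counts in every pig. DESeq2 called 10 cell type markers in place of 6.

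Small differences changed sign in neighbours that did not pass the limits in any setting. With library size only *ARIH2*, *CST3*, *AARSD1* and *ACSL1* were at 0.17, 0.18, 0.27 and 0.19, and *AARSD1* and *ACSL1* were at 0.00 with all genes with any count. With each pig left out, *ARIH2* lay between -0.67 and 0.29, *SLC39A14* between -0.08 and 0.09, *CST3* between -0.32 and 0.11, *AARSD1* between -0.21 and 0.11, *PRIMPOL* between 0.00 and 0.67, and *ACSL1* between -0.24 and 0.23. The causes were not tested. With the replicate number as a block, 1114 genes, 2 relatives, 3 neighbours and 6 markers passed, and *AARSD1* was at 0.01. Same-numbered pigs deviated together only weakly (correlations of 0.017, 0.070 and 0.235), so the numbers were not taken as pairs.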

Other observations

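Counts of some genes of the lists differed widely among the pigs of 1 genotype. *TUBB3*, a tubulin of neurons, was counted 4, 5 and 358 times with the knock-in and 158, 3 and 3 times in WT pigs. *LOX*, the lysyl oxidase that cross-links collagen, was counted 52, 74 and 941 times with the knock-in and 97, 174 and 65 times in WT pigs. *TNP1*, a nuclear protein of spermatids, was counted 0, 2 and 6 times with the knock-in and 23, 0 and 64 times in WT pigs. *TDRD12*, of the piRNA pathway, was counted 8, 12 and 88 times with the knock-in and 94, 42 and 52 times in WT pigs. These genes were singled out after their values were seen. Between genotypes, *LOX* had a log2 fold change of 1.36 (adjusted p = 0.732 from edgeR) and *TDRD12* one of -0.99 (adjusted p = 0.762), and neither passed the limits. *TUBB3* and *TNP1* were left out of the test by the filter on low counts.

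*SAG*, the arrestin of rod photoreceptors, was counted 5, 6 and 6 times with the knock-in and 0 times in each WT pig, below the limit of 10 counts, while *CRX* and *PDE6B* of the same list had 0 counts in every pig. *CCNDBP1*, the gene after *EPB42* in the direction away from *TGM5*, averaged 55.4 ± 13.7 CPM (SD, n = 3) with the knock-in and 26.2 ± 11.4 CPM (SD, n = 3) without it. It had a log2 fold change of 1.08 (SE 0.37, unadjusted p = 0.0204, adjusted p = 0.583 from edgeR), and it was the gene that the 3 nearest neighbours added to *TTC4* and *CST7*.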
